A study of Rattus norvegicus with 16 samples.

Results

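The genes described here are 10 markers and peptides of hippocampal interneurons, measured in whole rat hippocampus 24 h after fluid percussion brain injury (TBI). They are Gad1, Gad2, Pvalb, Calb2, Sst, Npy, Cck, Vip, Penk and Pdyn. Their probes were found by the gene name in the scanner files, which gave 12 of the 30367 non-control probes, with 2 probes each for Gad1 and Npy. All 12 passed the filter on dim probes, as did 22827 probes in all. Each of the 16 single-colour arrays held the RNA of 1 adult male Sprague-Dawley rat. The 3 Naïve rats had neither anesthesia nor handling, the 2 Sham rats underwent anesthesia and the preparatory surgery without the impact, and the 3 TBI rats received a severe fluid percussion injury. The 3 TBI+PMI rats (PMI-006, by gavage), 3 TBI+JM6 rats (a blocker of kynurenine 3-monooxygenase, by gavage) and 2 TBI+E33 rats (estradiol) received the same injury plus a drug. The labels give a subcutaneous route for E33 and the methods an intraperitoneal one. The methods give 3 rats per group, and 1 further rat of the Sham and 1 of the TBI+E33 group were not analysed here.

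Interneurons are the inhibitory minority of hippocampal neurons. They make GABA from glutamate with the enzymes that Gad1 and Gad2 encode, and they are sorted into classes by the calcium-binding proteins and peptides they contain. Pvalb marks fast-spiking cells that contact the cell body and initial axon segment, Sst marks cells that contact distal dendrites, and Vip and Calb2 mark cells that mainly inhibit other interneurons. Npy is made by several interneuron classes and restrains glutamate release, Cck by a class of basket cells and by some pyramidal cells. Penk and Pdyn encode the precursors of the enkephalins and dynorphins, opioid peptides that dentate granule cells also make. In a whole-hippocampus extract, fewer cells of a class and less RNA per cell cannot be told apart.

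Probe and promoter sequences help to read the values. Penk and Npy were each measured on replicate spots within every array, and the Penk probe holds the codons of the Met-enkephalin core, tyrosine-glycine-glycine-phenylalanine-methionine, given in capitals. The other Gad1 probe was not above background in TBI rats and is shown because its values go apart from those of the main Gad1 probe. Both are 60 bases long, and their rn4 positions are chr5:17509637-17509696 (minus strand) for Penk and chr3:52813028-52813087 (plus strand) for Gad1.
Penk probe: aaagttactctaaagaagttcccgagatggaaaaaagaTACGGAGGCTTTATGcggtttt
Gad1, the other probe: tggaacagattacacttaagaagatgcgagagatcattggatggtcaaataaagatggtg

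Promoter windows are shown for the members that hold a cAMP response element or its short form. Somatostatin is the gene in which the cAMP response element, TGACGTCA, was defined. Of the members, 7 have a promoter in the RefSeq table of GRCr8 (Gad1, Gad2, Pvalb, Sst, Npy, Vip and Pdyn), as windows of 300 bases around the annotated start. The full element was found in 1 of these 7, Sst, and in 612 of all 33469 promoters (1.83%). Its short form TGACG, contained in the full element and searched on both strands, was found in 3 of the 7 (Pvalb, Sst and Vip) and in 21.2% of all promoters. Neither was found in the windows of Gad1, Gad2, Npy and Pdyn. Whether these elements bear on the values below was not tested. The windows below hold 30 bases each, with the element or its short form in capitals, at chr11:90461537-90461566 for Sst and chr1:44470371-44470400 for Vip, both on the plus strand, and at chr7:111666510-111666539 on the minus strand for Pvalb.
Sst: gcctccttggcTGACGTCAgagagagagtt
Vip: ggatcaccactgTGACGtctttcgaggagc
Pvalb: gatggtcccTGACGgcgggatcctgatcaa

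The signal of a gene is given as log2 of its intensity over the 75th percentile of the probes well above background on the same array. It therefore compares one gene between arrays and not one gene with another. All 10 genes were well above background on every array that measured them, 16 arrays for each gene but Pdyn, for which the spot of Naïve 1 was an outlier within its array and was left out. Where a gene had more than 1 probe, its brightest is used. The arrays lay on 4 slides scanned in 2 sessions. The first session held all Naïve, Sham and TBI arrays, with 16282 to 18245 probes above background, and the second all drug arrays, with 20259 to 24984. Slide 1 carried both Sham arrays with Naïve 1 and 2, slide 2 held Naïve 3 and the TBI arrays, slide 3 held the TBI+PMI arrays and TBI+JM6 1, and slide 4 held TBI+JM6 2 and 3 and the TBI+E33 arrays. A drug and a session thus cannot be told apart in any comparison of a drug group with TBI, and the median of all probes was higher than in TBI by 0.79 in TBI+PMI, 0.99 in TBI+JM6 and 1.08 in TBI+E33 rats.

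**Figure D1:**
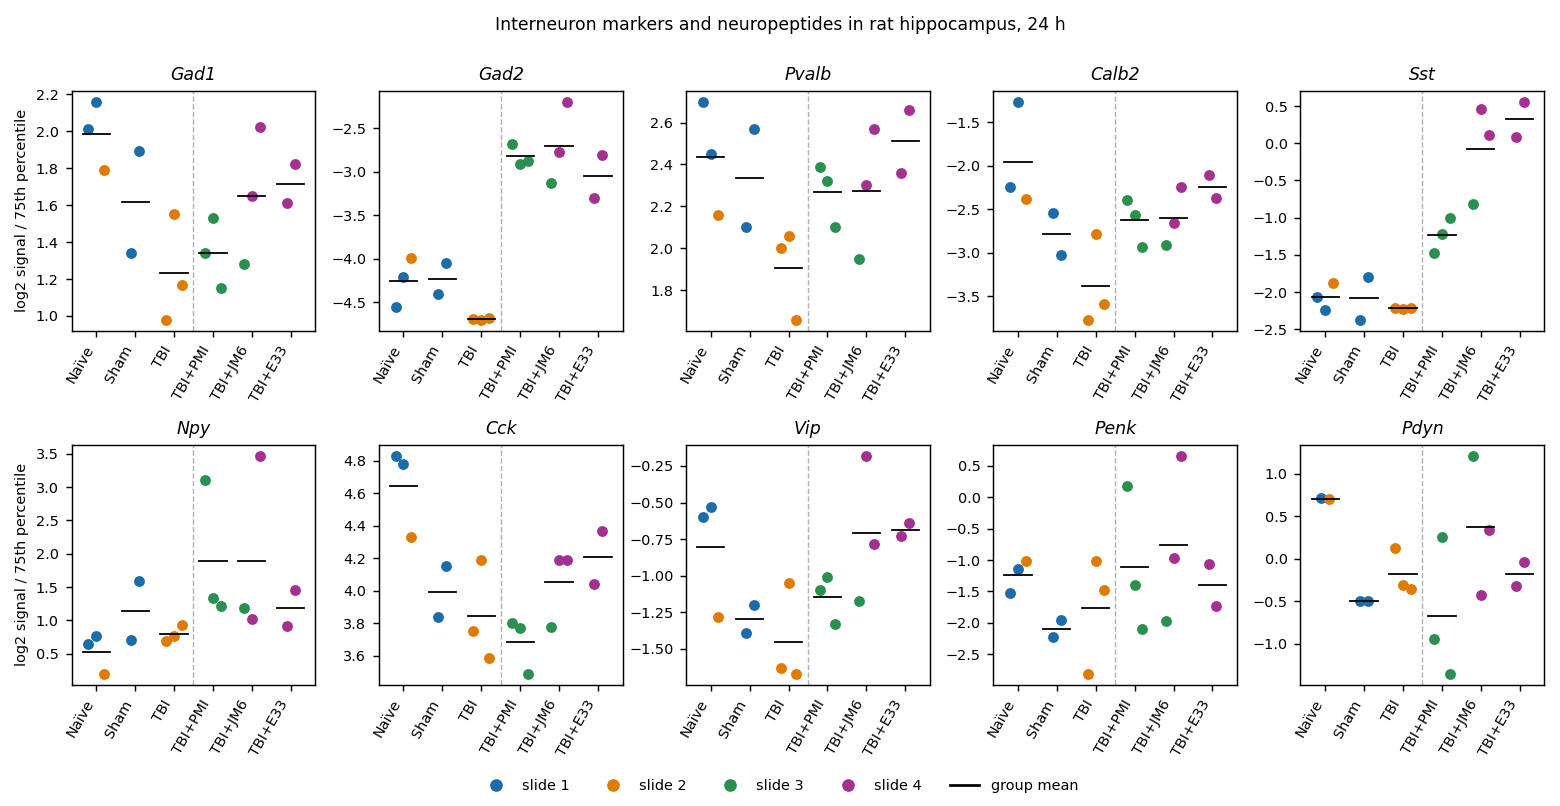
Signal of each of the 10 genes on each array (y axis, log2 of intensity over the 75th percentile, with a separate scale per gene), by group (x axis). Points are arrays, coloured by slide, bars are group means, and the dashed line divides the scan sessions. Sst lies at -2.37 to -1.80 in the first session and at -1.48 to 0.56 in the second, and 1 TBI+PMI and 1 TBI+JM6 array stand above all others for Npy and Penk.

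The first comparison set TBI rats beside Sham rats, which had the surgery without the impact. All Sham arrays lay on slide 1 and all TBI arrays on slide 2. In every TBI vs. Sham result below, only the Naïve arrays bridge these slides. None of the 10 genes differed between TBI and Sham rats (limma, adjusted p under 0.05), none had an unadjusted p under 0.05, and 9.41% of all tested probes were called. The methods' t-test put 1 of the 10 past an unadjusted 0.05. The median log2 difference of the 10 was -0.26, against -0.03 over all probes, with 8 genes lower and 2 higher. The differences ran from -0.60 for Calb2 (95% interval -1.40 to 0.20) to 0.33 for Penk (-1.30 to 1.96). With the slide as a fixed block they ran from -0.85 for Gad2 to 0.55 for Vip, with Calb2 at 0.03, and none was called. The lower values of most genes thus depended on how the slide was treated.

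For the GABA-synthesizing enzymes, Gad1 was at 1.34 and 1.89 in Sham and at 0.98, 1.55 and 1.17 in TBI rats, so the groups overlapped. Gad2 was at -4.41 and -4.05 in Sham and between -4.70 and -4.68 in all 3 TBI rats. Its groups did not overlap, but the difference of -0.46 (SE 0.26) did not pass (limma adjusted p = 0.295). Pvalb was at 2.10 and 2.57 in Sham and 2.0, 2.06 and 1.66 in TBI rats, a difference of -0.43 that did not pass either (adjusted p = 0.284). Sst was at -2.37 and -1.80 in Sham and between -2.22 and -2.21 in TBI rats, a difference of -0.13 (95% interval -0.82 to 0.57).

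The other Gad1 probe was above background in 2 of 2 Sham arrays, at -3.66 and -4.56, in 0 of 3 TBI arrays, and in 1 of 3 Naïve arrays (Naïve 2, at -5.55). Sham rats were at least 3.53-fold above TBI rats on it (limma adjusted p = 0.028), the bound being set by the dimmest signal well above background on the TBI arrays. Under quantile normalization the adjusted p was 0.0683. Sham rats stood above Naïve rats too, by 2.41 (adjusted p = 0.0348, or 0.106 under quantile normalization), while TBI and Naïve rats differed by -0.12 (adjusted p = 0.938), with most of their arrays at background. On the main Gad1 probe the difference was -0.38 (adjusted p = 0.373), so the 2 probes of Gad1 did not give the same call. Their rn4 positions lie on the same chromosome and strand, and which transcripts each detects was not examined.

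Against Naïve rats, which had no surgery, 2 of the 10 genes fell in TBI rats, Cck and Calb2, where 4.71% of all tested probes were called. The median difference of the 10 was -0.59, against 0.04 over all probes, and 9 of the 10 were lower.

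Cck encodes cholecystokinin. It was at 4.83, 4.78 and 4.33 in Naïve, 3.84 and 4.15 in Sham and 3.75, 4.19 and 3.59 in TBI rats, so every Naïve array lay above every other array of the session. The log2 fold change of TBI vs. Naïve was -0.80 (SE 0.21, limma adjusted p = 0.0493). On slide 2, which carries Naïve 3 beside the TBI arrays, 4.33 stood against a highest TBI value of 4.19, and with the slide as a fixed block the difference was -0.49 (adjusted p = 0.768).

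Calb2 encodes calretinin. Its Naïve arrays were at -2.24, -1.26 and -2.38, its Sham arrays at -2.54 and -3.02 and its TBI arrays at -3.77, -2.78 and -3.59. The groups lay in the order Naïve, Sham, TBI, with an overlap only between the last 2. Its fold change in TBI vs. Naïve was -1.42 (SE 0.33, limma adjusted p = 0.0304), or -1.0 with the slide as a fixed block (adjusted p = 0.703). Naïve 2 was the highest array, and without it the change was -1.07 (adjusted p = 0.0829). Leaving out Naïve 1, TBI 1 or TBI 3 also ended both calls, at adjusted p of 0.0659, 0.0559 and 0.108 for Calb2 and 0.172, 0.0743 and 0.171 for Cck.

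Gad1 had its lowest Naïve array (1.79) above the highest TBI array (1.55). It was at 2.01, 2.16 and 1.79 in Naïve rats, and its difference of -0.75 in TBI rats missed the threshold (limma adjusted p = 0.0796) but passed under quantile normalization (-0.79, adjusted p = 0.015). Pvalb was at 2.70, 2.45 and 2.16 in Naïve rats, and its difference of -0.53 did not pass (adjusted p = 0.179). Gad2, at -4.55, -4.21 and -3.99, and Sst, at -2.07, -2.24 and -1.88, differed from TBI by -0.44 and -0.15, again without a call.

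Vip was at -0.60, -0.53 and -1.28 in Naïve, -1.39 and -1.20 in Sham and -1.63, -1.05 and -1.67 in TBI rats. Naïve 3, on the slide of the TBI arrays, lay among the Sham and TBI values, and the difference of -0.65 between TBI and Naïve did not pass (limma adjusted p = 0.191). Pdyn was at 0.71 and 0.70 in the 2 Naïve rats measured, -0.49 in both Sham rats, and 0.13, -0.31 and -0.35 in TBI rats. Both differences from Naïve, -1.2 in Sham and -0.88 in TBI rats, missed the threshold (adjusted p = 0.192 and 0.32).

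Between Sham and Naïve rats none of the 10 was called, against 8.08% of all probes. Of the 10, 3 had an unadjusted p under 0.05 in limma (Calb2, Cck and Pdyn) and 2 in the methods' t-test, and the median difference was -0.43. Cck differed by -0.65, with a 95% interval of -1.17 to -0.14 that includes the change seen in TBI vs. Naïve rats.

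**Figure D2:**
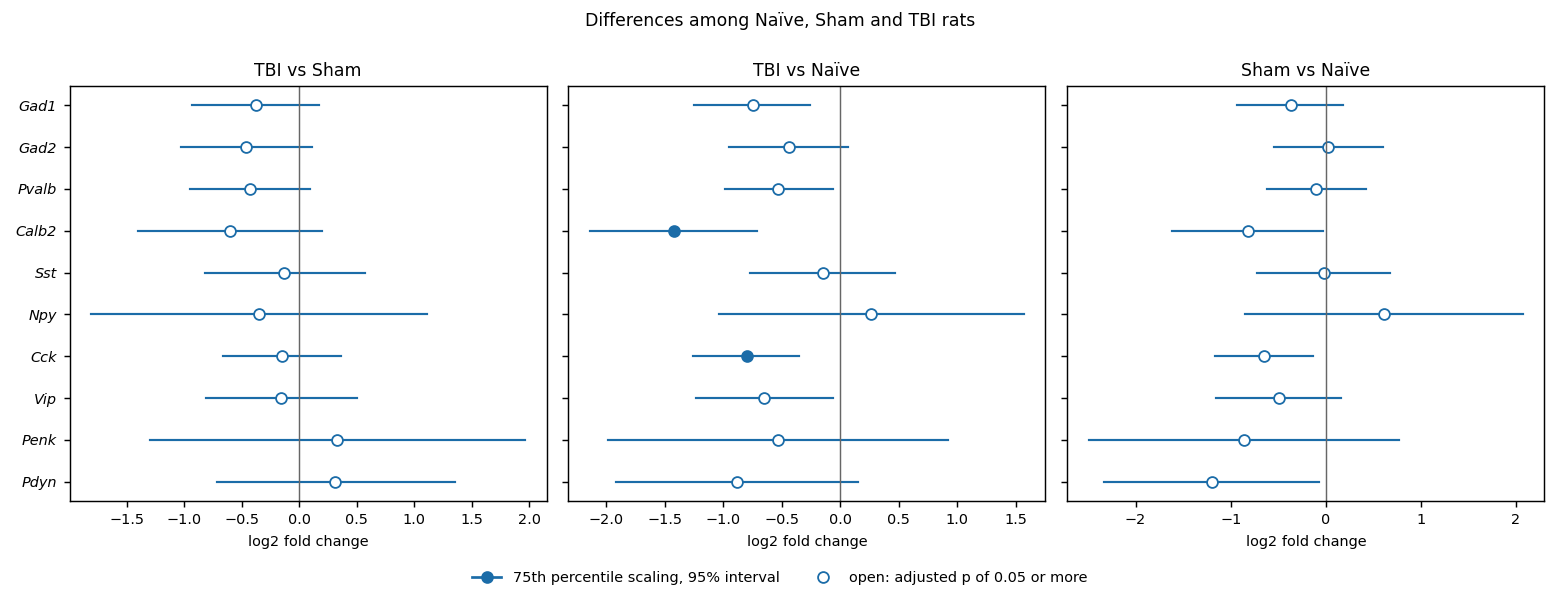
Log2 fold change (x axis) of each of the 10 genes (y axis) in TBI rats relative to Sham and to Naïve rats and in Sham relative to Naïve rats, with 95% intervals from limma. Filled points have an adjusted p under 0.05, which are Cck (-0.80) and Calb2 (-1.42) in TBI vs. Naïve, and most of the points lie left of 0 in all 3 panels.

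Other genes of inhibitory neurons were read from lists, with calls on the percentile scaling. Under quantile normalization Abat, Calb1, Scg3, Snap25 and Fibcd1 lost the call in TBI vs. Sham (limma adjusted p from 0.0512 to 0.108). Npas1, Cox6a2, Pcsk1n, Slc17a7 and Grin2b kept it there. In Sham vs. Naïve, Nr2f2, Vipr2, Slc17a7 and Wfs1 lost the call, and Kcnc2 and Nts kept it. Of 3 further GABA genes tested, Abat, which encodes the GABA-degrading transaminase, fell in TBI vs. Sham by 0.79 (limma adjusted p = 0.0432). None was called against Naïve, where 2 had an unadjusted p under 0.05 in limma and 1 in the methods' t-test. Of 12 interneuron transcription factors, Npas1 fell vs. Sham (-1.01, adjusted p = 0.0167). Against Naïve, Lhx6, which specifies Pvalb and Sst cells, fell by 0.76 (adjusted p = 0.0385). Nr2f2 was above background in 3 of 3 Naïve arrays and in no Sham or TBI array. Its Naïve level was at least 1.54-fold above that of TBI rats and at least 1.96-fold above that of Sham rats (limma adjusted p = 0.0227 and 0.0415).

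Of 14 other interneuron genes, Kcnc2, a potassium channel of fast-spiking cells, fell by 1.64 and Reln, made by several interneuron classes, by 1.2 in TBI vs. Naïve rats (limma adjusted p = 0.00625 and 0.034). In TBI vs. Sham, Calb1, also abundant in granule cells, fell by 1.11 (adjusted p = 0.0379) and Cox6a2 rose by 2.42 (adjusted p = 0.039). Kcnc2 was also lower in Sham than in Naïve rats, by -1.26 (adjusted p = 0.0187).

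Of 17 other peptide genes, 2 rose in TBI vs. Naïve rats, Gal by 1.87 and Nts by 1.67 (limma adjusted p = 0.0182 and 0.0141), which encode galanin and neurotensin. Nts rose in Sham rats too, by 2.07 (adjusted p = 0.00643), and none of the 17 was called in TBI vs. Sham (0 at an unadjusted p under 0.05 in limma, 1 in the methods' t-test), with a median of -0.35. Of 10 genes for processing and storing peptides, 2 fell in TBI vs. Sham, Pcsk1n by 1.21 and Scg3 by 0.66 (adjusted p = 0.0295 and 0.0384). None of the 10 was called in TBI vs. Naïve (1 at an unadjusted p under 0.05 in limma, 2 in the methods' t-test). Their mean level was highest in Sham rats, at 0.56 to 0.96, against -0.02 to 0.50 in Naïve and 0.15 to 0.52 in TBI rats. Of 13 peptide receptors tested, Vipr2, a receptor of VIP, fell by 1.37 in TBI and by 1.51 in Sham vs. Naïve rats (adjusted p = 0.0329 and 0.025).

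Markers of other cells moved in the same comparisons. Of 9 pan-neuronal genes, 1 (Snap25, -0.68) fell in TBI vs. Sham and none in TBI vs. Naïve (2 at an unadjusted p under 0.05 in limma, 3 in the methods' t-test), while 3 of 8 markers of excitatory neurons fell in TBI vs. Sham (Slc17a7 by 1.43, Fibcd1 by 0.88 and Grin2b, which was not above background in any TBI array and at least 2.26-fold higher in Sham rats). The excitatory markers had a mean level of -0.07 to 0.09 in Sham, above both the -0.98 to -0.63 of Naïve and the -1.43 to -0.45 of TBI rats. Slc17a7 and Wfs1 rose by 1.43 each in Sham vs. Naïve rats (limma adjusted p = 0.0235 and 0.0439), and 1 of the 8 (Grin2b) was called in TBI vs. Naïve. Markers of the striatum, a tissue rich in Penk and Pdyn that lies outside the hippocampus, had a mean level of -2.91 to -2.41 in Naïve, -3.97 to -3.33 in Sham and -3.83 to -2.99 in TBI rats. Of its 7 tested genes, 2 fell in TBI vs. Naïve, Drd2 by 1.48 and Pde10a by 0.81, while Pde10a rose in TBI vs. Sham by 0.96. Thalamic markers were at -5.29 to -3.29 in Naïve rats, highest in Naïve 2, and at -5.50 to -4.95 in TBI rats, and none of their 7 tested genes was called in TBI vs. Naïve (2 at an unadjusted p under 0.05 in limma, 0 in the methods' t-test). The part of these neighbouring tissues in the lower Cck and Calb2 of TBI vs. Naïve rats was not tested.

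The drug groups were compared with TBI rats to ask which genes moved with treatment. Relative to the array scale 3 of the 10 genes rose in TBI+JM6 rats (70.1% of all probes were called), 2 in TBI+PMI rats (56.7%) and 5 in TBI+E33 rats (70.3%), and none fell. Quantile normalization sets the distribution of all arrays equal, and with it 2 genes rose in TBI+JM6 (27.2% of probes called), 1 in TBI+PMI (19.2%) and 1 in TBI+E33 rats (20.4%). Only 3 or 4 of the 10 differences exceeded the median shift of all probes in each comparison.

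Sst encodes somatostatin and had the largest of these changes in TBI+JM6 and TBI+E33 rats. It was at -2.21, -2.22 and -2.21 in TBI rats and at -1.48, -1.22 and -1.0 in TBI+PMI rats. TBI+JM6 rats were at -0.82, 0.46 and 0.11 and TBI+E33 rats at 0.08 and 0.56. No drug group overlapped TBI on this scale, which carries the shift of all probes. The log2 fold change was 2.13 in TBI+JM6 (SE 0.29, limma adjusted p = 5.36e-05), 2.53 in TBI+E33 (SE 0.32, adjusted p = 4.28e-05) and 0.98 in TBI+PMI rats (SE 0.29, adjusted p = 0.0116). These are 1.13, 1.46 and 0.19 above the median of all probes. Under quantile normalization they were 1.33 (adjusted p = 0.00748), 1.74 (adjusted p = 0.005) and 0.28 (adjusted p = 0.533). There the TBI+PMI arrays, at 8.73, 8.97 and 9.48, overlapped the TBI arrays, at 8.77, 8.68 and 8.90.

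Within the second session the Sst values divided by slide. The 4 arrays of slide 3, the TBI+PMI arrays and TBI+JM6 1, lay between -1.48 and -0.82, and the 4 arrays of slide 4 between 0.08 and 0.56, on either side of a gap that runs through the TBI+JM6 group. All 4 arrays of slide 4 lay above all of slide 3 for 19.6% of the 19102 tested probes above background on these 8 arrays. The difference of TBI+E33 from TBI+PMI was 1.56 (95% interval 0.86 to 2.25, limma adjusted p = 0.0937) and that of TBI+JM6 from TBI+PMI was 1.15 (0.53 to 1.77, adjusted p = 0.301). With the slide as a fixed block they were 0.45 and 0.41 (adjusted p = 1 for both). With the slide as a random block the first was 1.69 (adjusted p = 0.0239), and without TBI+JM6 1 the second was 1.52 (adjusted p = 0.0464). The slides of the first session, by contrast, covered -2.37 to -1.80 and -2.22 to -1.88.

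Gad2 encodes the form of glutamate decarboxylase found mainly at nerve terminals. It was at -2.68, -2.91 and -2.87 in TBI+PMI, -3.13, -2.77 and -2.19 in TBI+JM6 and -3.30 and -2.80 in TBI+E33 rats. On this scale, which carries the shift of all probes, all lay above the first session, whose highest array was at -3.99. Under quantile normalization the sessions overlapped, with TBI+E33 1 at 6.43 and Naïve 3 at 7.31. Its change from TBI was 1.87, 1.99 and 1.63 in TBI+PMI, TBI+JM6 and TBI+E33 rats (limma adjusted p = 6.49e-05, 2.27e-05 and 0.000221). Quantile normalization left 0.77 in TBI+PMI (adjusted p = 0.0244), 0.70 in TBI+JM6 (adjusted p = 0.0269) and 0.10 in TBI+E33 rats (adjusted p = 0.8). Gad2 was dim in the first session, with intensities of 50.47 to 88.84. Under normexp background correction the changes were 0.79, 1.31 and 0.84 in TBI+PMI, TBI+JM6 and TBI+E33 rats. Only that of TBI+JM6 was then called (limma adjusted p = 0.376, 0.0487 and 0.301).

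Gad1, which encodes the form that fills the cell body, did not follow Gad2. Its drug arrays were at 1.34, 1.53 and 1.15 in TBI+PMI, 1.28, 1.65 and 2.02 in TBI+JM6 and 1.61 and 1.82 in TBI+E33 rats, and no difference from TBI was called. The other Gad1 probe was above background in 8 of 8 drug arrays, at -4.03 to -3.04. There TBI+PMI, TBI+JM6 and TBI+E33 rats were at least 5.28, 6.52 and 6.53-fold above TBI rats (limma adjusted p = 0.000617, 0.000211 and 0.00051). With quantile normalization this call held in TBI+JM6 rats (adjusted p = 0.046) and not in TBI+PMI or TBI+E33 rats (adjusted p = 0.0697 and 0.112).

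The remaining calls were below the shift of all probes, or 0.07 above it for Calb2. Vip was at -1.17, -0.18 and -0.78 in TBI+JM6 and -0.73 and -0.64 in TBI+E33 rats, and rose from TBI by 0.74 and 0.77 (limma adjusted p = 0.0263 and 0.0374). Pvalb, at 2.36 and 2.66, and Calb2, at -2.11 and -2.37, rose in TBI+E33 rats by 0.60 and 1.14 (adjusted p = 0.0397 and 0.015). Under quantile normalization none of these 4 was called and 3 turned negative, Vip at -0.05 in TBI+JM6 and -0.06 in TBI+E33 rats and Calb2 at -0.02, while Pvalb was at 0.03.

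Cck, at 3.80, 3.77 and 3.49 in TBI+PMI, 3.78, 4.19 and 4.19 in TBI+JM6 and 4.04 and 4.37 in TBI+E33 rats, lay close to the Sham and TBI values. Pdyn differed widely between rats of a group, at -0.94, 0.26 and -1.35 in TBI+PMI, 1.21, -0.42 and 0.34 in TBI+JM6 and -0.32 and -0.04 in TBI+E33 rats. Neither gene was called against TBI.

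**Figure D3:**
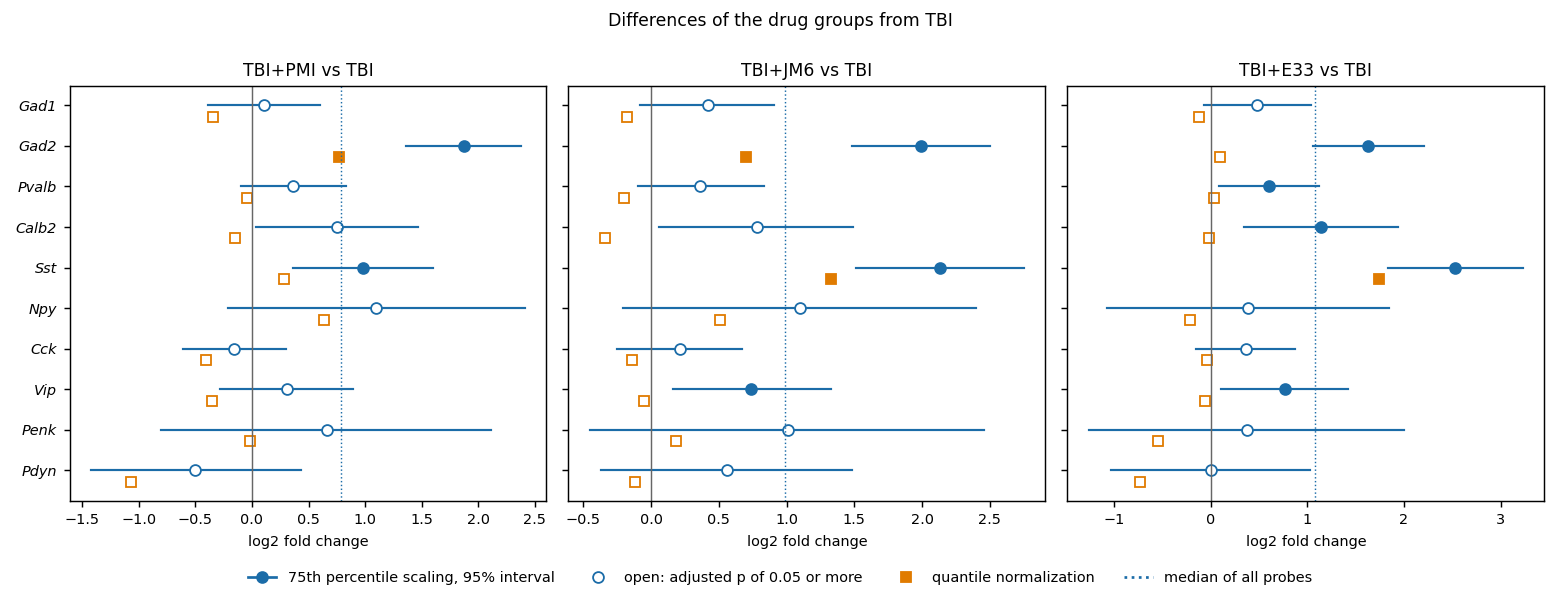
Log2 fold change (x axis) of each of the 10 genes (y axis) in the 3 drug groups vs. TBI. Circles with 95% intervals use the 75th percentile scaling, squares quantile normalization, filled symbols have an adjusted p under 0.05, and the dotted line is the median of all probes (0.79, 0.99 and 1.08). Sst in TBI+JM6 and TBI+E33 rats and Gad2 in TBI+PMI and TBI+JM6 rats are filled under both scalings.

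The drug groups were set against each other at the doses the study chose, which differ between the compounds, so that no comparison at a matched dose was possible. None of the 10 genes was called in TBI+JM6 vs. TBI+PMI (0.0131% of all probes were), TBI+E33 vs. TBI+PMI (0.11%) or TBI+E33 vs. TBI+JM6 (0.0175%). An unadjusted p under 0.05 was found for 2, 2 and 0 genes in limma, and for 1, 2 and 0 in the methods' t-test. The intervals remained wide, such as -2.17 to 0.75 for Npy in TBI+E33 vs. TBI+PMI.

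Npy encodes neuropeptide Y. It was at 0.64, 0.76 and 0.20 in Naïve, 0.70 and 1.59 in Sham and 0.69, 0.76 and 0.93 in TBI rats, and at 0.92 and 1.45 in TBI+E33 rats. TBI+PMI 1 stood at 3.11 beside 1.34 and 1.22 in its group, and TBI+JM6 3 at 3.47 beside 1.19 and 1.02. In scaled intensity those are 8.65 and 11.1 times the 75th percentile, where the other 14 arrays ran from 1.15 to 3.0.

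The other Npy probe gave the same 2 arrays as the highest, at 2.40 and 2.84, with the remaining drug arrays at 0.06 to 0.55 and Sham 2 at 0.82. Within an array the main Npy probe was read from 7 to 10 spots, whose log2 SD was 0.06 and 0.07 on the 2 high arrays and at most 0.24 on any array. With 1 rat of 3 high in each group, the changes from TBI of 1.10 in TBI+PMI and 1.10 in TBI+JM6 rats did not pass (SE 0.60 for each, limma adjusted p = 0.132 and 0.117). Without those 2 arrays they were 0.49 and 0.31 (adjusted p = 0.161 and 0.343).

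Penk was highest on the same 2 arrays. It was at 0.18 on TBI+PMI 1 and 0.66 on TBI+JM6 3, against -1.40 and -2.10 for the other TBI+PMI and -1.97 and -0.97 for the other TBI+JM6 arrays. TBI+E33 rats were at -1.07 and -1.73, TBI rats at -2.81, -1.01 and -1.47, Sham rats at -2.22 and -1.96, and Naïve rats at -1.53, -1.15 and -1.02. The Met-enkephalin probe printed above was read from 10 spots per array, with a log2 SD of 0.11 on TBI+PMI 1 and 0.42 on TBI+JM6 3. The changes from TBI, 0.66 in TBI+PMI and 1.01 in TBI+JM6 rats, did not pass (limma adjusted p = 0.411 and 0.192) and were 0.01 and 0.29 without the 2 arrays.

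The peptide lists were read on these 2 arrays, and the genes named in this paragraph and the next were chosen after their values were seen. Trh, which encodes thyrotropin-releasing hormone, was at 2.54 on TBI+PMI 1 and 2.70 on TBI+JM6 3, above all 6 other drug arrays (-2.21 to -0.73) and all arrays of the first session, the highest of which was -2.09. Bdnf, a neurotrophin gene that neuronal activity induces, was at -0.93 and -0.18 against -3.73 to -2.89 on the other drug arrays. Both genes thus separated the 2 arrays from the other 14, as Npy and Penk did.

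Pcsk1, the prohormone convertase that cuts peptide precursors, was at -1.82 and -0.63 against -3.30 to -2.73 on the other drug arrays. Vgf was at 3.91 on TBI+JM6 3, but its 2.40 on TBI+PMI 1 lay within the range of the other drug arrays, 1.39 to 2.47. Npy receptors did not move together. Npy5r was at -3.58 and -3.65, below every other array, the lowest of which was -3.05, and Npy1r was at -3.37 and -3.40 against -2.87 to -2.39 on the other drug arrays. Npy2r was at -4.34 and -3.23 against -5.57 to -4.15, with TBI+JM6 3 the higher. Inhba, which encodes an activin subunit and was the gene most like Npy, was at 0.14 and 2.01 against -2.96 to -2.55.

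These 2 arrays were picked because Npy and Penk were highest on them, so the counts that follow describe that choice and support nothing. Of the 10 members, 3 had TBI+PMI 1 and TBI+JM6 3 as their 2 highest drug arrays (Npy, Penk and Gad2). That held for 4 of the 8 peptide-processing genes above background on all drug arrays, for 2 of 17 other peptide genes (Trh and Bdnf), and for 10.1% of all 19102 tested probes above background on the drug arrays. Choroid plexus markers were at a mean of 1.59 on TBI+PMI 1 and at -4.52 on TBI+JM6 3, where the other drug arrays ran from -5.12 to -3.08. Thalamic markers were at -3.67 and -3.21, where the other drug arrays ran from -4.26 to -3.19. Striatal markers, at -2.97 and -2.79, lay within the -3.38 to -2.15 of the other drug arrays. TBI+PMI 1 was on slide 3 and TBI+JM6 3 on slide 4. What set these 2 arrays apart was not tested.

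**Figure D4:**
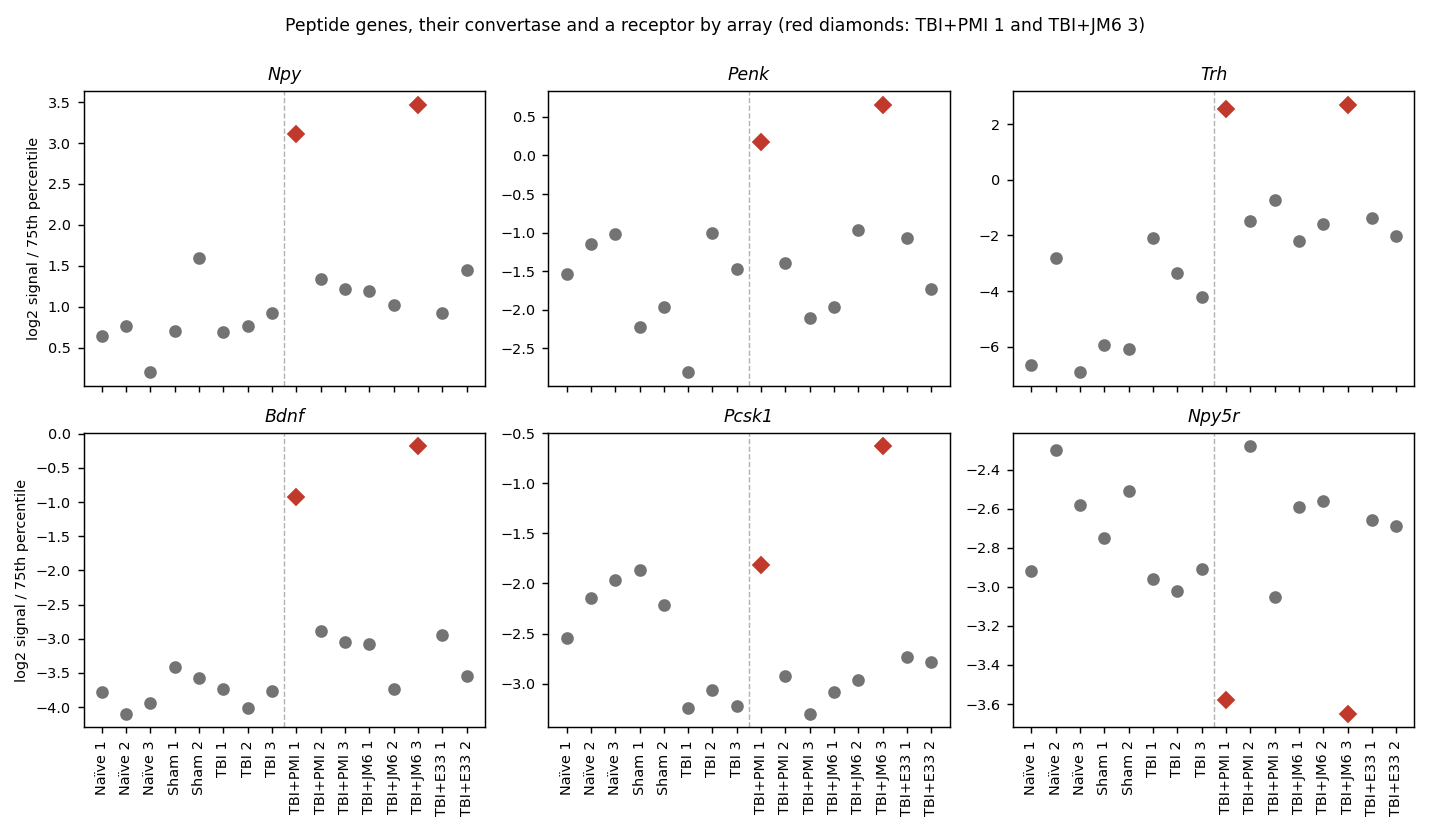
Signal (y axis, log2 of intensity over the 75th percentile, a separate scale per gene) of Npy, Penk, Trh, Bdnf, the convertase gene Pcsk1 and the receptor gene Npy5r on each of the 16 arrays (x axis). Red diamonds are TBI+PMI 1 and TBI+JM6 3, and the dashed line divides the scan sessions. The diamonds lie above all circles in the first 5 panels and below them in the last.

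Genes with the most similar pattern were ranked for each member by Pearson r over the 16 arrays, after the mean of each scan session was subtracted, among 10191 genes. The arrays share slides and a scale, so r is a description. Npy was most like Inhba, Rasl11a and Coq10b (r = 0.93, 0.92 and 0.92), and r was 0.77, 0.69 and 0.73 without TBI+PMI 1 and TBI+JM6 3. Penk was most like Lass6 (now Cers6), Plk3 and Snf1lk (now Sik1), at 0.88, 0.88 and 0.87. Sst was most like Adra2b, B3gnt7 and Hk1 (0.92, 0.88 and 0.87).

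Gad1 was most like Gpr26, Gprasp2 and Mgst3 (0.94, 0.94 and 0.93) and Gad2 like Necap1, P4ha1 and Pcsk1 (0.81, 0.81 and 0.80). Cck was most like Adcy8, Sept6 (now Septin6) and Flywch1 (0.94, 0.94 and 0.93), Pvalb like Fbxo25, Pdgfa and Serp2 (0.93, 0.92 and 0.92), Vip like Vac14, Socs7 and Rpp25 (0.92 for each) and Calb2 like Rps6kc1, Slit3 and Slc25a14 (0.88, 0.87 and 0.87). Pdyn, with 1 array missing, was not ranked.

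Among the members themselves, Gad1 with Cck and Cck with Vip had the highest r, 0.91 each, followed by Gad1 with Pvalb (0.83), Gad1 with Vip (0.81) and Pvalb with Cck (0.80). Npy had an r of 0.62 with Penk and 0.59 with Gad2, but 0 with Cck, -0.11 with Vip and -0.15 with Sst. Sst and Penk had an r of 0.06.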

How the data were processed

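Hippocampal RNA of 16 rats was measured on single-colour Agilent rat arrays. The authors read the scans with Agilent Feature Extraction 9.5.3.1. The deposited scanner intensity is background subtracted and detrended within the array and is not normalized between arrays. The matrix deposited by the authors holds a ratio to the 75th percentile, and was used only as an alternative. Flags for spots above background were taken as deposited. Probe positions are those of rn4, for which no annotation was used here.

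Intensities of 42877 spots were averaged into 30367 probes (28977 with 1 spot and 1390 with 10), leaving out spots with outlier flags, divided by the 75th percentile of probes well above background on the array, and log2 was taken. Probes that all arrays of some group measured well above background (22827) were fitted in a single limma model of 6 group means, with 10 residual degrees of freedom, and called where the adjusted p (Benjamini-Hochberg, two-sided) was under 0.05. In a comparison a few probes with missing values drop out. A gene is its brightest tested probe. The number of arrays limits the precision. Each rat was measured on its own array, so the spread behind the p-values joins differences between rats with array noise. It also holds slide differences within the Naïve and TBI+JM6 groups, which spanned slides. An offset between slides or sessions that separates the compared groups, as in TBI vs. Sham and drug vs. TBI, is not part of that spread.

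All 10 genes were named by every array. From each other list, counts and at most 4 genes called in a comparison of TBI, Sham and Naïve rats with the largest change were named, and per member the 3 genes of highest Pearson r. The genes and lists were chosen with earlier results of these data known. Of the lists, GABA genes, transcription factors, other interneuron genes, peptides, processing, receptors, pan-neuronal, excitatory, granule cell, thalamus, striatum, choroid plexus, microglia, astrocyte and oligodendrocyte genes were tested, and some of their genes are not reported here. Alternatives were quantile normalization, a 75th percentile over all probes, normexp with an offset of 50, the authors' matrix, other filters, a mean over each gene's probes, the compared groups alone, the methods' t-test with equal variances (fold over 1.2), the slide and the replicate number as blocks, and leaving out arrays. Promoters are from RefSeq (GRCr8), and no promoter of Calb2, Cck or Penk was used. R 4.3.3, limma 3.58.1, data.table (version 1.17.8), Python 3.11.15 and matplotlib 3.10.9 were used.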

Additional observations from a re-analysis of the deposited data

Results flagged for a closer look

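Under the percentile scaling, the arrays of 2 drug groups lay on opposite sides of the TBI mean for Cck. Both TBI+E33 arrays (4.04 and 4.37) lay above the TBI mean of 3.84 and all 3 TBI+PMI arrays (3.80, 3.77 and 3.49) below it. The difference of 0.52 between TBI+E33 and TBI+PMI (95% interval 0 to 1.03) did not pass (limma adjusted p = 0.331). The opposite sides did not hold under other scalings. With quantile normalization Cck differed from TBI by -0.04 in TBI+E33 and -0.41 in TBI+PMI rats, and with the 75th percentile of all probes both TBI+E33 arrays (4.77 and 4.97) lay below every TBI array (5.20 to 5.57). With the slide as a fixed block it was 0.10, and the groups lie on different slides.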

How the results depend on the processing

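Of 371 alternative values for the named fold changes, 295 kept their direction and their side of the threshold, 57 lost the call, 9 gained one and 10 changed sign. The 295 include differences not called at first that stayed uncalled, such as all 19 values for Npy in TBI+JM6 vs. TBI. They are therefore not a share of calls kept. For Calb2 in TBI vs. Naïve, which was called, 11 values kept the call and 8 lost it, and for Cck 10 and 9. Sst and Gad2 in TBI+JM6 vs. TBI, and Sst in TBI+E33 vs. TBI, kept their call under every alternative run (limma or t-test adjusted p at most 0.0197, 0.0487 and 0.0141). The slide as a fixed block was not among these, since TBI shares no slide with a drug group. No alternative separates a drug from its scan session, so the kept calls do not bear on that question. Changes of sign were small: Vip in TBI+JM6 vs. TBI (-0.05 with quantile normalization, -0.04 with the 75th percentile of all probes and with the authors' matrix), Vip in TBI+E33 vs. TBI (-0.06, -0.06 and -0.05), Calb2 in TBI+E33 vs. TBI (-0.02 with quantile normalization, -0.01 with the matrix), Pvalb in TBI+E33 vs. TBI (-0.23 with the percentile of all probes) and Penk in TBI+PMI vs. TBI (-0.02 with quantile normalization). The cause was not tested.

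Counts of members called moved as follows. In TBI vs. Sham (0) a mean over each gene's probes gave 1 and the unadjusted t-test 1. In TBI vs. Naïve (2) the matrix and the unadjusted t-test gave 4 each, no filter on dim probes 1, and normexp, the compared groups alone, the adjusted t-test and the fixed slide block 0. In Sham vs. Naïve (0) the percentile of all probes and the matrix gave 1 each and the unadjusted t-test 2. In TBI+JM6 vs. TBI (3) that mean gave 5. In TBI+PMI vs. TBI (2) quantile normalization and the matrix gave 1 and normexp 0. In TBI+E33 vs. TBI (5) quantile normalization and the matrix gave 1, and the percentile of all probes, normexp and both t-tests 2. In TBI+JM6 vs. TBI+PMI (0) the unadjusted t-test gave 1, and in TBI+E33 vs. TBI+PMI (0) it gave 2 and the random slide block 1. Leaving out 1 array at a time gave 0 to 2 in TBI vs. Naïve, 2 to 5 in TBI+JM6 vs. TBI (5 without TBI+JM6 1, 2 without TBI 1, TBI 3 or TBI+JM6 2), 2 to 6 in TBI+E33 vs. TBI (2 without TBI 1 or TBI+E33 1, 3 without TBI 3 or TBI+E33 2) and 0 to 1 in TBI+JM6 vs. TBI+PMI. Leaving out TBI+PMI 1 and TBI+JM6 3, chosen after seeing the data, gave 2 in TBI+JM6 vs. TBI, where Vip was lost (adjusted p = 0.0613), and 2 in TBI+PMI vs. TBI.

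Rats of the same number in different groups deviated together little (r from -0.19 to 0.18 over probes), so the numbers were not used to pair the samples. With so few rats per group, these r values cannot exclude a pairing. With a replicate block the counts were 2 in TBI vs. Naïve, 0 in TBI or Naïve vs. Sham, 3, 2 and 4 in TBI+JM6, TBI+PMI and TBI+E33 vs. TBI, and 0 between drugs, and Pvalb in TBI+E33 vs. TBI was 0.55 (limma adjusted p = 0.0671).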

Other observations

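Microglial and astrocytic genes were measured in the same extracts. Cd68, a lysosomal gene of microglia and macrophages, rose in TBI vs. Sham rats by 2.68 and vs. Naïve rats by 2.22 (limma adjusted p = 0.0196 and 0.0351), and Itgam rose vs. Sham by 1.40 (adjusted p = 0.0149), 2 of 8 microglial markers in TBI vs. Sham and 1 of 8 vs. Naïve. Of 8 astrocyte markers, Gfap and Vim rose in TBI vs. Naïve by 2.53 and 2.63 (adjusted p = 0.00272 and 0.0167) and Aldh1l1 fell by 0.80 (adjusted p = 0.0475). Gfap rose in Sham vs. Naïve too, by 2.02 (adjusted p = 0.00771), and no astrocyte marker was called in TBI vs. Sham (3 at an unadjusted p under 0.05 in limma, 1 in the methods' t-test).

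Of the oligodendrocyte markers, Mobp fell in TBI vs. Sham by 1.95 and Cnp by 1.28 (limma adjusted p = 0.0166 and 0.012), while Mobp rose in Sham vs. Naïve by 1.75 (adjusted p = 0.0238). Of 6 granule cell genes tested, C1ql2 fell in TBI vs. Sham by 1.78 and Calb1 by 1.11 (adjusted p = 0.0237 and 0.0379). The mean level of choroid plexus genes was -6.08 to -4.13 in TBI rats, -4.07 to 0.85 in Sham rats, -5.07 to -0.27 in Naïve rats and -5.12 to 1.59 in TBI+PMI rats. None of the 6 tested was called in TBI vs. Sham, where 2 had an unadjusted p under 0.05 in limma and 0 in the methods' t-test.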
